A study of Mus musculus with 4 samples.

Results

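The cells described here were the cycling mesenchyme of the mouse mammary bud at embryonic stage E15.5, 80 cells of 1 single-cell RNA-seq library. The library held 2642 cell barcodes. In 816 of them at least 5000 UMIs (unique molecular identifiers, each counting 1 captured transcript) were found, of which at most 6% came from mitochondrial genes. A cell was taken as mesenchyme when it had at least 10 UMIs of the fibrillar collagen genes Col1a1, Col1a2 and Col3a1 and more than 2 times the UMIs of Epcam and the keratins Krt8, Krt18, Krt5, Krt14 and Krt15. This gave 279 mesenchyme cells, 526 epithelial cells and 11 cells of neither class. A mesenchyme cell was taken as cycling when the 6 genes Top2a, Mki67, Cenpf, Hmmr, Nusap1 and Birc5 together had at least 10 UMIs. The 80 cycling cells were 28.7% of the mesenchyme (exact 95% binomial interval 23.4 to 34.4) and were among 1630 cells kept over the 4 libraries of the series.

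The tissue was dissected mammary buds of wild-type C57B6 female embryos (C57 B6/N by the study's methods), pooled within a stage. Cells were sorted as EpCAM+ and EpCAM- after blood (CD45+, Ter119+) and endothelial (CD31+) cells and doublets had been gated out, and were captured with 10x Chromium 3' chemistry. The other libraries were E13.5, E14.5 and the day of birth (P0), with the same strain and sex and no treatment in any. There was 1 library per stage, so no value had a replicate, no test was made, and a stage could not be told apart from its library or from the share of each sorted fraction that was loaded. All intervals below are 95% intervals for counting error only.

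A cell that divides first copies its DNA in S phase, which takes the replication fork proteins, nucleotide synthesis and new histones. In G2 it builds up cyclin B, the kinase Cdk1 and the spindle and kinetochore proteins, and in mitosis the chromosomes are condensed, pulled apart and the cell cleaved. D-type cyclins act before this, in G1, where growth signals allow the cycle to start, and inhibitors of the cyclin-dependent kinases such as p57 (Cdkn1c) hold it back. In the embryonic mammary gland the mesenchyme that lies against the epithelial bud carries the oestrogen receptor and Lef1 and exchanges signals with it, while the dermal mesenchyme lies further away. The study marked the first with Crabp1, Lef1, Esr1 and Vcan and the second with Cdkn1c and Plagl1. In its ligand and receptor part it reported Fgf10 and Fzd4 in the dermal mesenchyme, and they are counted with the dermal genes here.

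Promoters of 3 genes of the rule (Top2a, Mki67 and Nusap1) and 3 other genes of mitosis (Cdk1, Ube2c and Cdc20) are shown because genes of the late cell cycle are known to share 2 short elements, the CHR element (TTTGAA), bound by the DREAM and MYB-MuvB complexes, and the CCAAT box, bound by NF-Y. The letters were searched on both strands of RefSeq promoters (build GRCm38.p6, 250 bases before to 50 after each transcription start). Each line gives the 120 bases before the start, 5' to 3' along the gene, with TTTGAA and CCAAT or their reverse complements in capitals.
Top2a promoter, chr11:99024190-99024309, minus strand: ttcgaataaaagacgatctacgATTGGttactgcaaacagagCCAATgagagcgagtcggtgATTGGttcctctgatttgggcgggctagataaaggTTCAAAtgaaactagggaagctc
Mki67 promoter, chr7:135716380-135716499, minus strand: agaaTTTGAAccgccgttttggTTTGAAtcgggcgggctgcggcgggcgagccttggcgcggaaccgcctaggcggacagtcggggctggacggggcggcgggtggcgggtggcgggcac
Cdk1 promoter, chr10:69352913-69353032, minus strand: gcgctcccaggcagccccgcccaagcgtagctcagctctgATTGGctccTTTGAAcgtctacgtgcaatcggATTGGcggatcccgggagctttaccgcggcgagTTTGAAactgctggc
Ube2c promoter, chr2:164769809-164769928, plus strand: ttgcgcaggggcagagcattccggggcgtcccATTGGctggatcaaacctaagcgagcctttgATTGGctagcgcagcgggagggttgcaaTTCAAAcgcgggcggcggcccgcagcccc
Cdc20 promoter, chr4:118437344-118437463, minus strand: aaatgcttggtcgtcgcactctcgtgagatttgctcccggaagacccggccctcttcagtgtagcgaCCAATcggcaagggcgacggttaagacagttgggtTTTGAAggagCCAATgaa
Nusap1 promoter, chr2:119618178-119618297, plus strand: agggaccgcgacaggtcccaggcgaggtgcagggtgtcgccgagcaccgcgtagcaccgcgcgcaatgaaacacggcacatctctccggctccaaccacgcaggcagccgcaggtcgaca
In Top2a, which codes for the enzyme that untangles DNA, the CHR letters began 23 bases before the start, and also 179 bases before it, outside the printed line. In Cdk1 they began 15 and 71 bases before the start, and in Ube2c and Cdc20 29 and 18 bases before it. Mki67, the gene of the Ki-67 antigen, had them at 116 and 98 bases before the start. Of the 6 genes of the rule, Top2a, Mki67, Cenpf and Hmmr held TTTGAA in the full window, in Cenpf and Hmmr just after the start, and Nusap1 and Birc5 held neither motif. Over the lists for G2 and mitosis, 47 of 54 genes had a promoter entry, with 51 promoters. Of these, 35 held TTTGAA (68.6%), against 17.9% of all 32851 promoters, and 29 held both motifs (56.9%), against 6.95%. CCAAT, with or without TTTGAA, was found in 37 (72.5%), against 37.4% of all. The 27 promoters of 22 replication and nucleotide genes held TTTGAA in 11.1% and CCAAT in 59.3%, so CCAAT was frequent in both sets. They held the E2F letters GCGGGAA in 40.7%, against 4.60% of all promoters and 5.88% of those for G2 and mitosis. The letters are a description of these windows and not evidence of binding.

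The values that chose the cells are given first, as a description, and they ran on across the limit. The UMIs of the 6 genes ranged from 10 to 226 per cycling cell with a median of 69, and 58 of the 80 cells had a UMI of every one of the 6. Of the 199 non-cycling cells, 121 had none of these UMIs, 72 had 1 to 4, and 6 had 5 to 9. Nearest to the limit on the inside were cells with 10, 10, 11, 11, 12 and 14 UMIs, and just outside it cells with 9, 9, 7, 7, 6 and 5. The plot of cycle-gene UMIs against depth shows few cells near the limit and 66 cycling cells with at least 30. With each cell down-sampled at random to 5000 UMIs (thinned) and cycling set from 2 UMIs, 83 cells met the rule, 78 of them among the 80. The shares that follow are those of the genes that chose the cells and are given as a description. After thinning, Top2a had a UMI in 91.2% of the cycling cells (73 of 80), Birc5, the survivin of the chromosomal passenger complex, in 71.2%, and Hmmr, a spindle protein, in 47.5%. The shares in the non-cycling mesenchyme were 4.02%, 6.03% and 1.01%. Before thinning the Top2a shares were 93.8% and 16.6%, at median depths of 34052 and 22597 UMIs.

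**Figure D1:**
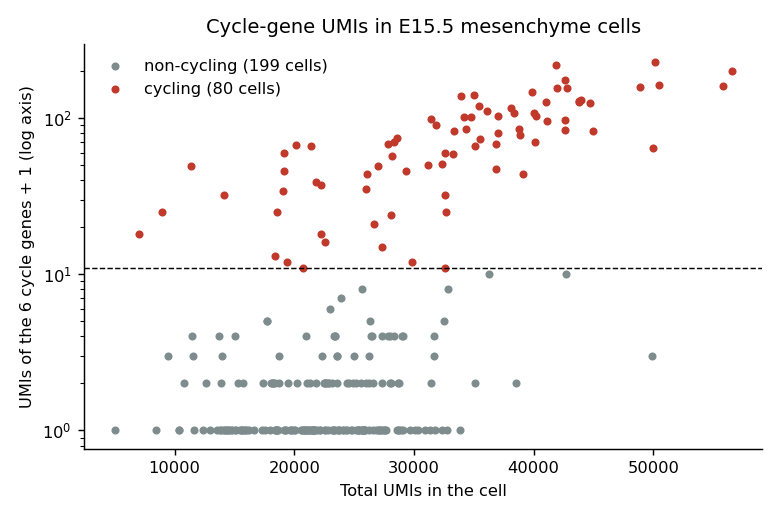
Each point is 1 of the 279 E15.5 mesenchyme cells, with its total UMIs on the x axis and the UMIs of Top2a, Mki67, Cenpf, Hmmr, Nusap1 and Birc5 plus 1 on the y axis (log axis); the dashed line is the minimum of 10 UMIs. The 80 cycling cells run from 10 to 226 UMIs and reach higher total UMIs than most of the 199 non-cycling cells.

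The cycling cells were deeper than the others, with 34052 UMIs at the median (lowest 6983, highest 56546) against 22597 (5021 to 49859), and they held 4 cells above 50000 UMIs where the non-cycling cells had 0. For the comparison each cycling cell was therefore given the 2 non-cycling cells nearest in total UMIs, each used once. The 160 cells so chosen had a median of 23819 UMIs, so the match in depth was only partial. A tighter match, chosen after the data were seen, kept 50 cycling cells and 50 non-cycling cells within 10% of each other, with medians of 28458 and 28436 UMIs. Values from it are given as "50 pairs". At 5000 UMIs per cell, a cycling cell showed a median of 2034 genes and a non-cycling one 1893, so the RNA of cycling cells was spread over slightly more genes at equal depth. Whether depth follows from the size of a dividing cell or from capture was not tested, nor was the part of doublets that passed the sort, and no doublet caller was run. The mitochondrial percentage was alike, 4.18 against 4.34 at the median of the 160 cells.

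The mesenchymal label held for the cycling cells. Col1a1, Col1a2 and Col3a1 had UMIs in all 80 cells, with a median of 118 UMIs of Col1a1 per cell, but these genes were part of the rule. Of genes outside it, Pdgfra, a growth factor receptor of fibroblasts, had a UMI in 60.0% of the thinned cycling cells and 0.380% of the epithelial cells, Twist2 in 73.8% and 0.380%, and Prrx1 in 68.8% and 0 of 526 (1.33% of epithelial cells before thinning). The 8 epithelial genes summed to 48.3 CPM (UMIs scaled to 1000000 UMIs of the class) in the cycling cells, 122 in the 160 matched cells and 7420 in the epithelium, with Krt14 the most abundant (48 and 164 UMIs). Of the cycling cells 3, and of the non-cycling cells 10, had 5 or more UMIs of the 6 epithelial genes of the rule. A single matched cell held 131 UMIs of these 6 genes, and the highest cycling cell 8. Over all matched cells the 8 genes had 473 UMIs, so that cell weighed on the 122 CPM. Of 5 immune genes, Cd68 had 13 UMIs and Ptprc, C1qa, Lyz2 and Csf1r had 0. Of 5 endothelial genes, Kdr had 22 UMIs, Pecam1 7, Cdh5 1, Cldn5 1 and Emcn 0, for 11.7 CPM against 17.8. The 4 erythroid genes had 1 UMI, the 5 Schwann and melanocyte genes 7 and the 5 muscle genes 4. The 4 adipogenic genes had 17 UMIs, 12 of them of Cebpa, with Fabp4 at 0. The pericyte and smooth muscle list was at 191 CPM against 134, and 466 of its 507 UMIs were Acta2. The library shared 1 barcode with E13.5 and 1 with E14.5, and none of them was a kept cell.

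Over the whole transcriptome, 6620 genes had at least 100 UMIs in the cycling and matched cells together. Of these, 814 (12.3%) were at least 1.5-fold higher in the cycling cells and 442 (6.68%) at least 1.5-fold lower, with a median log2 ratio of 0.06. The cells were chosen on this contrast, so these shares are its background and nothing is read from them. The genes of the cell cycle lists made up 2.57% of the UMIs of cycling cells and 0.781% of those of the matched cells.

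The genes of mitosis come first, and since the rule itself counts genes of the late cycle, their ratios are in part set by it. Counts of genes past 1.5-fold were also in part set by the minimum of 100 UMIs, here, in the 50 pairs and for the other cycle genes below. A gene sparse in the matched cells, such as Bub1 or Kif11, reached it only through the cycling cells, so it could only be higher. Over all genes, 12.3% were past 1.5-fold higher. All 12 kinetochore and checkpoint genes were past 1.5-fold higher, with a median log2 ratio of 4.97. Bub1, a checkpoint kinase, had 272 UMIs in the cycling cells and 4 in the 160 matched cells, and Knl1, the scaffold of the outer kinetochore, had 322 and 7. The Ndc80 complex, which holds the microtubules, was represented by Ndc80 at 39.0-fold (17.5 to 108), Nuf2 at 38.3-fold and Spc25 at 29.9-fold. Cenpa, the histone variant that marks the centromere, was at 15.2-fold (12 to 19.6). All 13 spindle and cytokinesis genes with enough UMIs were higher too. Kif11, the motor that separates the spindle poles, had 424 UMIs against 5, and Tpx2, which activates Aurora A, 510 against 20. Anln and Ect2, which act in the cleavage furrow, were at 35.5-fold and 19.5-fold. Plk1, the polo kinase, was under the minimum of 100 UMIs and outside these counts. It had 94 UMIs in the cycling cells and 1 in the matched cells, and a UMI in 12.5% of the thinned cycling cells and in 0 of the 199 non-cycling ones, or 47.5% and 1.01% before thinning. For condensation all 9 genes were higher, among them the condensin subunits Smc2 (9.90-fold), Smc4 (7.04-fold) and Ncapd2 (17-fold) and the chromatin protein Hmgb2, the most abundant, at 2024 CPM against 236. All 7 kinetochore, 11 spindle and 7 condensation genes with enough UMIs in the 50 pairs were still past 1.5-fold higher, but many ratios were smaller: Knl1 was at 27.3-fold, Ndc80 at 22.0-fold, Anln at 16.1-fold, Cenpa at 9.27-fold, Ncapd2 at 8.70-fold and Smc2 at 6.19-fold. Of 111 cycle-list genes with a ratio in both, 34 came nearer to 1 by over 1.5 times in the 50 pairs and 3 moved as much the other way.

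Of the genes that end mitosis, 4 of 5 with enough UMIs were past 1.5-fold higher, as were 12.3% of all genes. Ube2c, the E2 enzyme of the anaphase-promoting complex, was at 354 CPM against 9.81 (36.1-fold, 26.1 to 51.3) and its activator Cdc20 at 92.9 against 5.42. Pttg1, securin, was the exception at 1.20-fold (0.902 to 1.60). Of the kinases and cyclins that drive entry, Cdk1 was at 310 CPM against 11.9 (26.1-fold, 19.4 to 35.9). Ccnb1 had 371 UMIs against 3, a ratio of 181 with an interval of 61.4 to 881, and Ccna2 was at 21.0-fold (32.3-fold in the 50 pairs).

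Genes of DNA replication differed less and overlapped more between the classes. The rule counts genes of the late cycle, so this contrast with the mitosis genes is in part set by it. Of 18 replication fork and licensing genes with enough UMIs, 16 were past 1.5-fold higher and none lower, with a median log2 ratio of 1.51. Over all genes these shares were 12.3% and 6.68%. Pcna, the sliding clamp, was at 146 CPM against 46.7 (3.12-fold, 2.61 to 3.74), Lig1, the ligase of the lagging strand, at 2.84-fold, and Uhrf1, which carries DNA methylation through replication, at 5.69-fold. Within the Mcm helicase, Mcm3 was at 2.85-fold and Mcm5 at 2.43-fold but Mcm4 at 1.49-fold and Mcm2 at 1.07-fold (0.764 to 1.49). Mcm5 in the 50 pairs was at 1.35-fold (0.961 to 1.92), inside 1.5-fold, Mcm3 at 2.18-fold, Mcm2 at 0.897-fold (0.531 to 1.51) and Pcna at 2.88-fold, and 8 of 12 such genes with enough UMIs were past 1.5-fold higher, as were 8.71% of the 3926 genes with enough UMIs there. All 6 nucleotide supply genes were higher, led by Tk1, thymidine kinase, at 18.0-fold and Rrm2, the small subunit of ribonucleotide reductase, at 7.31-fold. Replication-dependent histones were captured as well: Hist1h2ap was at 1142 CPM against 26.1 (43.8-fold), and the linker histone Hist1h1b at 289 against 4.91 (59.0-fold). Hist1h2ap in the 50 pairs was at 25.2-fold, Hist1h1b at 35.2-fold, Tk1 at 11.7-fold and Rrm2 at 4.72-fold. The H2A genes are near-identical copies, so how reads were shared among Hist1h2ap, Hist1h2ae, Hist1h2ab and Hist1h2ao is uncertain.

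**Figure D2:**
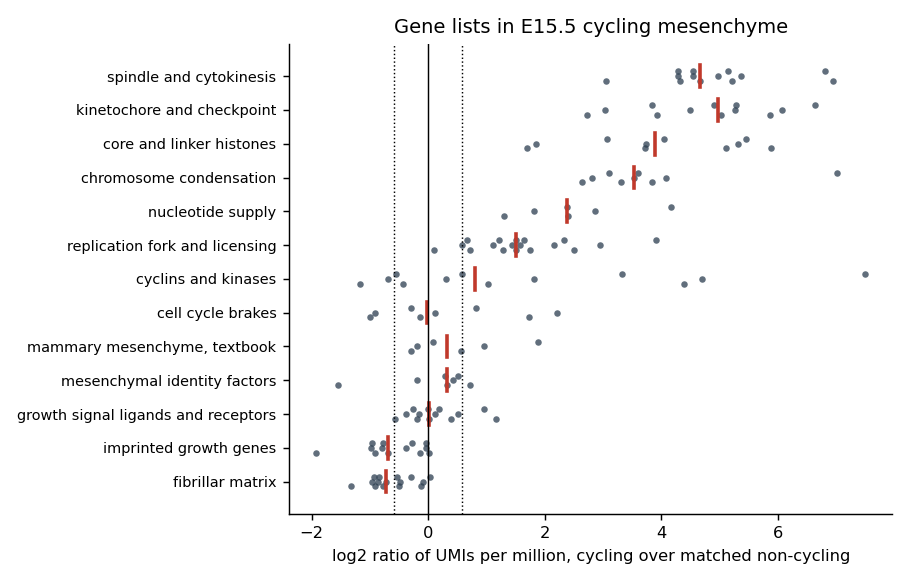
Each point is a gene with at least 100 UMIs, placed by its log2 ratio of CPM in the 80 cycling over the 160 matched non-cycling E15.5 mesenchyme cells; red bars are list medians and dotted lines mark 1.5-fold. Spindle, kinetochore, histone and condensation genes lie furthest to the right, and most imprinted and fibrillar matrix genes lie left of 0.

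The 80 cells were not alike, with replication genes high in some and mitosis genes high in others. The 26 replication and nucleotide genes summed to a median of 17.8 UMIs per 10000 in cycling cells (2.09 to 61.2) and 4.62 in the matched cells (0 to 39.1). The 10 mitosis genes (Cdc20, Ube2c, Ccnb1, Plk1, Aurka, Cenpa, Cenpe, Tpx2, Kif20a and Kif23) summed to 12.5 (0 to 58.2) and 0.230 (0 to 8.54). Some cells called cycling were low on both lists. A cell with 31 UMIs of the genes of the rule had 0 on the mitosis list and 3.55 on the replication list. Another, with 38, had 0 and 2.29, so both were below the matched medians. After thinning, 43 cycling cells had more replication than mitosis UMIs, 35 had more mitosis UMIs and 2 were tied. Across the 80 cells the lists ran against each other, with Spearman's rho of -0.64, and the 12 histone genes followed replication (0.68) and not mitosis (-0.36). These are correlations over cells of 1 library, with no replicate, between lists scaled to the same total. When the cells were split in 2 sets of 40 at the median of the mitosis list, Ccnb2, Hmmr and Cenpf were 3.65, 2.72 and 2.01 times as high in the upper set. The split was made on genes of mitosis, so these values are a description. Top2a was nearly level (1.15-fold), and Hist1h2ap (0.469-fold), Pcna (0.252-fold) and Mcm3 (0.269-fold) were lower there. The limit of the rule bore on this. Of the 199 non-cycling cells, 9 reached the cycling median of the replication list and 66 its lower quartile, whereas 0 reached the mitosis median, so cells with replication genes alone could be among those counted as non-cycling.

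**Figure D3:**
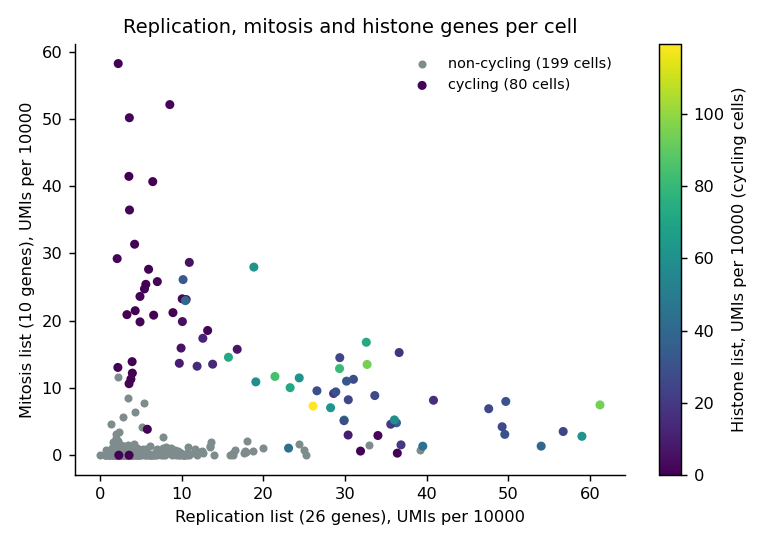
Each point is 1 mesenchyme cell, with UMIs per 10000 of the 26 replication genes on the x axis and of the 10 mitosis genes on the y axis; cycling cells are coloured by their 12 histone genes. Cycling cells form an arm of high mitosis and low replication and an arm of high replication that holds most histone signal. Some cycling cells lie low on both axes, and some of the 199 grey non-cycling cells extend along the replication axis.

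The D-type cyclins did not follow the later cyclins. Ccnd2 was at 343 CPM in the cycling cells against 770 in the matched cells, 0.445-fold (0.413 to 0.480), and 0.495-fold in the 50 pairs. Ccnd1 was at 179 against 288, 0.622-fold (0.557 to 0.693), 0.706-fold in the 50 pairs and 0.810-fold after thinning against all non-cycling cells. Ccnd3 was at 0.741-fold. Cdk6, a partner of these cyclins, was at 0.681-fold and Cdk4 at 1.24-fold. Of the E cyclins, Ccne2 was at 3.52-fold (7.76-fold in the 50 pairs) and Ccne1 at 1.49-fold (1.00 to 2.22). After thinning, Ccne1 had 4 UMIs in the cycling and 15 in all non-cycling cells, 0.663-fold (0.16 to 2.08), so its direction was not settled at that depth. Of 8 brakes of the cycle with enough UMIs, 3 were past 1.5-fold higher and 2 lower, against 12.3% and 6.68% of all genes. The higher ones were Cdkn2d (3.33-fold), Cdkn1b (1.76-fold) and Rbl1, the pocket protein p107 (4.61-fold). Cdkn2c, p18, had 43 UMIs against 13, under the minimum, and 26 against 2 in the 50 pairs. The lower ones were Cdkn1c and the antiproliferative gene Btg2 at 0.503-fold (0.431 to 0.586). Cdkn1a, p21, was at 1.08-fold (0.879 to 1.32), and at 1.60-fold in the 50 pairs (1.16 to 2.23). Of 6 brakes with enough UMIs in the 50 pairs, 2 were past 1.5-fold higher and 1 lower, against 8.71% and 4.79% of all genes. Cdkn1c was at 0.703-fold there, inside 1.5-fold. Of the E2F and DREAM regulators, Foxm1 had 63 UMIs against 2 and Mybl2 45 against 12, both under the minimum, and E2f8, a repressor, was at 5.07-fold.

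The question set for these cells was whether the sub-epithelial genes Crabp1 and Lef1 or the dermal genes Cdkn1c and Plagl1 lead in them. Crabp1 and Lef1 led. Together they had 2343 UMIs in the cycling cells, 885 CPM (849 to 921), against 1581 UMIs of Cdkn1c and Plagl1, 597 CPM (568 to 627), a ratio of 1.48 (1.39 to 1.58). In the 160 matched cells the order was turned, with 658 CPM against 1241, a ratio of 0.530 (0.505 to 0.556). Each sum rested mostly on 1 gene: in the cycling cells Crabp1 had 2024 UMIs and Lef1 319, and Cdkn1c had 1411 and Plagl1 170. Lef1 alone, at 120 CPM, was below Cdkn1c at 533 CPM there. UMIs from 3' ends do not scale with transcript length, but genes can be captured at different rates, so the ratio is one of UMIs. Counted by cell after thinning, Crabp1 and Lef1 led in 55 of the 80 cycling cells (68.8%, 57.4 to 78.7), Cdkn1c and Plagl1 in 18 (22.5%) and 7 were tied. Among the matched cells the counts were 81, 69 and 10. The 18 included the cells described above with 31 and 38 UMIs of the rule and 0 on the mitosis list. They had 17 and 22 thinned UMIs of Cdkn1c and Plagl1 and 0 of Crabp1 and Lef1. In the 40 cycling cells with more of the mitosis list the ratio of the pairs was 1.17 (1.07 to 1.27), and in the other 40 it was 2.01 (1.82 to 2.22). A single cell of the first set held 305 of the Cdkn1c UMIs, and without it that ratio was 1.78 (1.61 to 1.96) and the ratio over all cycling cells 1.88 (1.76 to 2.02).

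The size of this difference moved with the depth match and with a minority of cells. In the 50 pairs the ratio was 1.37 (1.25 to 1.49) in the cycling cells and 0.809 (0.746 to 0.878) in the others, and the pair of Crabp1 and Lef1 led in 31 of 50 cycling and 27 of 50 non-cycling cells. Per cell, Cdkn1c had a median of 7.5 UMIs in cycling cells (0 to 305) and 8 in matched cells (0 to 165). After thinning, the summed pair of Cdkn1c and Plagl1 had a median of 2 UMIs in both classes (0 to 38 and 0 to 47), and the pair of Crabp1 and Lef1 4 and 3 (0 to 15 and 0 to 14). The typical cells of the classes were thus close, and the matched cells held more cells with many dermal UMIs. When cells were divided by Crabp1 and Lef1 against Plagl1, Fgf10 and Fzd4, leaving Cdkn1c out, a division chosen after the values were seen, 9 cycling cells with the dermal genes ahead held 733 of the 1411 Cdkn1c UMIs. In those 9 cells Cdkn1c was at 3492 CPM against 2887 in the 58 non-cycling cells of the same kind, 1.21-fold (1.11 to 1.31). In the 65 cycling cells with Crabp1 and Lef1 ahead it was at 248 CPM against 390 in 119 non-cycling cells, 0.636-fold (0.573 to 0.705). The value of the 9 cells rested on the cell with 305 UMIs: without it Cdkn1c was at 2473 CPM, 0.857-fold (0.773 to 0.948), so the direction on the dermal side turned on 1 cell. Neither side was matched in depth, and the difference between the sides was not tested.

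Of the 4 genes, Plagl1 was furthest from the matched cells. Plagl1, an imprinted zinc finger gene, was at 64.2 CPM against 243, 0.264-fold (0.223 to 0.312), and at 0.334-fold in the 50 pairs. Cdkn1c was at 533 CPM against 999, 0.533-fold (0.501 to 0.567), and at 0.703-fold in the 50 pairs. Crabp1, which binds retinoic acid, was at 764 against 561, 1.36-fold (1.28 to 1.45), but at 1.07-fold (0.974 to 1.17) in the 50 pairs. Lef1, a nuclear factor of Wnt signalling, was at 1.24-fold (1.07 to 1.44) and 1.09-fold (0.883 to 1.36). Vcan, a matrix proteoglycan, was at 1.09-fold and Esr1 at 1.22-fold, and at 0.926-fold and 0.848-fold in the 50 pairs. Fgf10, the growth factor of the dermal layer, had 1 UMI in the cycling cells and 30 in the matched cells, a ratio of 0.0487 (0.00119 to 0.293), and Fzd4 had 6 and 23, 0.381-fold (0.127 to 0.964). Fgf10 had 1 and 9 UMIs in the 50 pairs, 0.106-fold, and Fzd4 5 and 6, 0.796-fold (0.192 to 3.13), inside 1.5-fold. The 4 genes lie on separate chromosomes of GRCm38 (GENCODE M21), Crabp1 at chr9:54764748-54773110, Lef1 at chr3:131110471-131224356, Cdkn1c at chr7:143458339-143461050 and Plagl1 at chr10:13060504-13131694.

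Turned around, the share of cycling cells was 37.7% (29.8 to 46.1) among the 146 mesenchyme cells where Crabp1 and Lef1 led, and 15.9% (9.72 to 24.0) among the 113 where Cdkn1c and Plagl1 led. With the rule applied after thinning, these shares were 38.4% and 17.7%. The cells of the first kind were deeper, with a median of 27004 UMIs against 21541, and the part of depth or of Cdkn1c itself, an inhibitor of the cycle, in the difference was not tested.

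**Figure D4:**
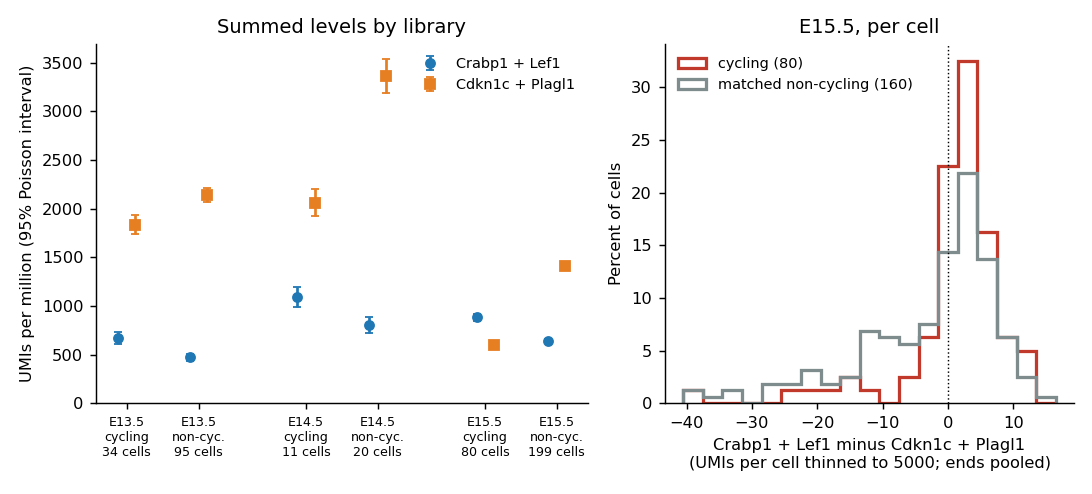
Left, summed CPM of Crabp1 and Lef1 (circles) and of Cdkn1c and Plagl1 (squares) in cycling and non-cycling mesenchyme of the 3 embryonic stages, with 95% Poisson intervals; right, Crabp1 and Lef1 minus Cdkn1c and Plagl1 per E15.5 cell thinned to 5000 UMIs. The circle lies above the square in E15.5 cycling cells and below it in the 5 other classes plotted, and the matched non-cycling cells have a longer tail to the left than the cycling cells.

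Genes of mammary mesenchyme and of growth signals that the study did not use as layer markers gave a mixed picture. Axin2, a target of Wnt signalling, was at 256 CPM against 115, 2.23-fold (1.97 to 2.51), and at 1.97-fold in the 50 pairs. It had a UMI in 65.0% of the thinned cycling cells and 34.7% of the non-cycling ones. Bmp4, a ligand made by mesenchyme beneath the bud, was at 84.2 CPM against 22.7, 3.71-fold (2.88 to 4.80), and 3.04-fold in the 50 pairs. Tbx3, a T-box factor of mammary bud formation, was at 1.95-fold and 1.89-fold, and at 1.48-fold after thinning. Within the cells with Crabp1 and Lef1 ahead, without a depth match, Axin2 stood at 1.83-fold, Bmp4 at 2.67-fold and Tbx3 at 1.74-fold. In the 9 cycling and 58 non-cycling cells with the dermal genes ahead, also unmatched in depth, Axin2 had 19 and 58 UMIs. Tbx3 had 24 and 69, 1.91-fold (1.15 to 3.07), and Bmp4 0 and 9. The receptor of parathyroid hormone-related protein, Pth1r, was at 1.47-fold. Of the 6 genes in the list of mammary mesenchyme with enough UMIs, Bmp4 and Tbx3 were past 1.5-fold higher and none lower. Over all genes these shares were 12.3% and 6.68%. Of 13 in the list of growth signals, which holds Axin2, the 2 past 1.5-fold higher were Axin2 and Pdgfc (1.94-fold, and 1.39-fold in the 50 pairs), and none was lower, a share near the 12.3% of all genes that were higher, with Pdgfra at 1.01-fold, Igf1r at 0.997-fold and Myc at 0.767-fold (0.601 to 0.976), which was 0.535-fold in the 50 pairs. Of the identity factors, Prrx2 was at 1.65-fold, Prrx1 at 1.43-fold, Twist1 at 1.34-fold and Ebf1 at 0.341-fold (0.246 to 0.464). Of 7 ribosome biogenesis genes, 1 was past 1.5-fold higher, again near that 12.3%, Dkc1 at 1.55-fold (1.10-fold in the 50 pairs), and the abundant Npm1 was at 0.915-fold.

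The imprinted growth genes and the fibrillar matrix genes were lower in part. Of 13 imprinted genes, Cdkn1c and Plagl1 among them, 7 were past 1.5-fold lower and none higher, with a median log2 ratio of -0.69 against 0.06 for all genes. Over all genes, 6.68% were past 1.5-fold lower and 12.3% higher. Meg3, a noncoding RNA and the most abundant, was at 1542 CPM against 2997, 0.515-fold (0.496 to 0.533). Dlk1, from the same locus, was at 893 against 1759, 0.508-fold, and H19 at 617 against 995, 0.620-fold. Mest was at 0.581-fold and Igf2 at 0.577-fold (0.851-fold after thinning), while Grb10 (0.979-fold), Nnat (1.01-fold) and Ndn (0.968-fold) were level. In the 50 pairs, where 4.79% of all genes with enough UMIs were past 1.5-fold lower, Plagl1 and Mest were so of the 12 imprinted genes with enough UMIs, with Meg3 at 0.776-fold, Dlk1 at 0.681-fold and H19 at 0.709-fold. Of 15 matrix genes, 8 were past 1.5-fold lower and none higher, against the same 6.68% and 12.3% of all genes. Dcn, decorin, was at 380 CPM against 957, 0.397-fold (0.370 to 0.426), Fn1, fibronectin, at 0.529-fold, Col5a1 at 0.527-fold and Sparc at 0.605-fold, while Col6a1 was at 0.945-fold and Eln, elastin, at 1.02-fold. In the 50 pairs 4 of the 15 were past it on the lower side: Col12a1, Fn1, Dcn (0.561-fold) and Fbn1. Within the 65 cycling and 119 non-cycling cells with Crabp1 and Lef1 ahead, without a depth match, Meg3 was at 0.750-fold, H19 at 0.744-fold, Dlk1 at 0.735-fold, Sparc at 0.769-fold and Dcn at 0.691-fold, which are inside 1.5-fold, while Cdkn1c at 0.636-fold was past it. Within the 9 and 58 cells with the dermal genes ahead, Meg3 was at 0.518-fold, Dlk1 at 0.637-fold, Sparc at 0.593-fold, Dcn at 0.632-fold and Col5a1 at 0.646-fold, all past 1.5-fold lower, and H19 at 0.836-fold and Mest at 0.705-fold were inside it.

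**Figure D5:**
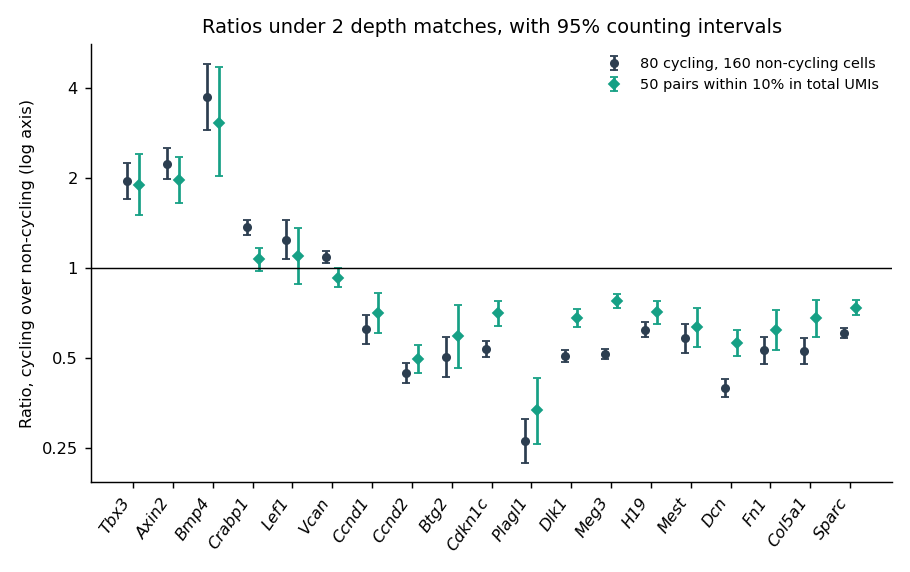
Ratio of CPM in cycling over non-cycling E15.5 mesenchyme (log axis) for 19 genes, with 95% counting intervals, for the 160 matched cells (circles) and the 50 pairs within 10% in total UMIs (diamonds). Bmp4, Axin2 and Tbx3 stay near 2-fold or above and Ccnd2 and Plagl1 at or below 0.5-fold in both, while Crabp1, Dlk1, Meg3 and Dcn lie nearer 1 in the tighter match.

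The 10 genes in no list with the largest ratios included Depdc1a (209 UMIs against 1), the kinase Pbk (272 against 3), the cohesin acetyltransferase Esco2 (171 against 2), Dlgap5, Ckap2l, Pimreg, Cdca2, and the passenger proteins Cdca8 (434 against 16) and Incenp (289 against 10). The other was the noncoding Gm26870, with 980 UMIs against 28, but 914 of the 980 were in 1 cell, and after thinning it had a UMI in 3.75% of cycling and 2.01% of non-cycling cells. The 10 lowest held the small matrix proteoglycans Aspn, asporin, at 6.42 CPM against 82.4 (0.0779-fold) and Ogn, osteoglycin, at 26.4 against 177 (0.149-fold), thrombospondin Thbs2 (0.145-fold), the kinase gene Nrk at 4.91 against 113 (0.0433-fold) and Fst, the activin antagonist follistatin, at 14.7 against 108 (0.136-fold). Itm2a, Sema3c, Gal, Tctn1 and Akap12 were the others. Of the 125 Tctn1 UMIs in the matched cells 77 were in 1 cell, and its ratio moved from 0.187-fold to 0.484-fold (0.257 to 0.868) without that cell. In the 50 pairs Aspn was at 0.239-fold, Ogn at 0.429-fold, Thbs2 at 0.231-fold, Nrk at 0.0934-fold, Fst at 0.0579-fold and Itm2a at 0.398-fold, and Tctn1 turned, with 15 UMIs against 7. Early response genes, which tissue dissociation can raise, were not uniform: Fos was at 0.664-fold, Egr1 at 0.671-fold, Dusp1 at 0.573-fold, Jun at 1.03-fold and Ier2 at 1.5-fold, and in the 50 pairs Fos, Egr1 and Dusp1 stood at 1.00, 1.20 and 1.27. How far dissociation bore on these was not tested.

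The cycling epithelium of the same library gave a comparison within it. By the same rule 88 of 526 epithelial cells were cycling (16.7%, 13.6 to 20.2). With the rule applied after thinning the count was also 88 of 526, and 79 cells met the rule both ways. The mesenchyme had 83 of 279 after thinning (29.7%, 24.4 to 35.5). The EpCAM+ fraction also took in skin cells, which were not set apart here. Against 176 matched epithelial cells, with medians of 34736 and 29047 UMIs, 10.1% of 7041 genes were past 1.5-fold higher and 4.2% lower. Kinetochore genes were higher in both tissues (10 of 10 in the epithelium), under the same rule and UMI minimum. Ccnd2 was at 0.654-fold in the epithelium, but Ccnd1 at 1.05-fold (0.866 to 1.26), Btg2 at 1.22-fold, Cdkn1c at 1.08-fold (0.999 to 1.17) and Plagl1 at 1.13-fold. Of the imprinted genes H19 was at 0.521-fold, the 1 of 10 past the limit. Cdkn2c, with 43 UMIs in the cycling mesenchyme, had 3 in the cycling epithelium and 0 in its matched cells. Ccnd2 in the cycling mesenchyme was at 0.322 times its level in the cycling epithelium (0.299 to 0.346), and Pcna at 0.876 times (0.768 to 0.999). These ratios compare cells of 1 library, and the difference between the tissues has no replicate.

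The same rule was applied at the other stages. The E13.5 library had 34 cycling of 129 mesenchyme cells (26.4%, 19 to 34.8). The E14.5 library had 11 of 31 (35.5%, 19.2 to 54.6), and the P0 library 2 of 265 (0.755%, 0.0915 to 2.70). The mesenchyme of E13.5 and P0 was shallower, with medians of 16573 and 8778 UMIs against 24324 at E15.5. With the rule applied after thinning, E13.5 had a share of 32.6% (24.6 to 41.4) and E15.5 one of 29.7% (24.4 to 35.5). The share after thinning was 32.3% in the E14.5 library and 1.89% in the P0 library. So E15.5 was above E13.5 before thinning and below it after, with overlapping intervals. In the cycling cells of E13.5, Crabp1 and Lef1 were at 669 CPM and Cdkn1c and Plagl1 at 1835, a ratio of 0.365 (0.329 to 0.404), and at E14.5 the ratio was 0.530 (0.471 to 0.596). In the non-cycling cells of these libraries the ratios were 0.221 (0.204 to 0.240) and 0.239 (0.212 to 0.269), against 0.453 (0.434 to 0.474) in all 199 non-cycling cells of E15.5. So the ratio was higher in cycling than in non-cycling cells in each of the 3 libraries, and it was above 1 in the cycling cells of E15.5 alone among these 6 classes. The differences between libraries were not tested, and the 2 cells of P0 had 0 and 12 UMIs of the pairs. Cdkn1c was at 1613 CPM in cycling and 1725 in non-cycling cells of E13.5 (0.935-fold), at 1614 and 2557 at E14.5 (0.631-fold) and at 533 and 1137 at E15.5 (0.468-fold). Here all non-cycling cells of a library were used, without a depth match. Plagl1 was lower in the cycling cells at each of these 3 stages (0.542-fold, 0.553-fold and 0.238-fold), as was Ccnd2 (0.636-fold, 0.606-fold and 0.463-fold).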

How the data were processed

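For each library the authors deposited raw UMI counts, gene by cell barcode, from Cell Ranger and the mm10 reference that comes with it. Per the file headers the version was 3.1.0 for E15.5 and 6.0.0 for the others, while the submitters' processing notes name 6.0.0, so stages also differ in software. The cell types and clusters of the authors were not used here. The members, gene lists and comparisons were chosen with earlier results of these data known.

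Cells were kept and classed by the UMI limits given above, and a CPM is a gene's summed UMIs over all UMIs of a class. The cycling cells held 2648783 UMIs and the 160 matched cells 3873573, so 3 UMIs, the floor for a count of 0, stand for 1.13 and 0.774 CPM. Levels have exact Poisson, shares exact binomial (Clopper-Pearson) and ratios exact conditional binomial 95% intervals. Of these, only the ratio intervals were tried on simulated counts. Those counts were drawn from the Poisson model that the intervals assume, so UMIs heaped in single cells were not covered. Each gene with at least 100 UMIs over both classes was placed against 1.5-fold, with no p-value. Named genes are those of the rule, genes of the lists, and outside them the 10 highest and 10 lowest ratios by the bound nearest 1 whose direction held after thinning. Alternatives were other limits, matches, thinning and gene lists. Python 3.11.15, numpy 2.4.6, scipy 1.17.1 and pandas 2.3.3 were used.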

Additional observations from a re-analysis of the deposited data

How the results depend on the processing

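No paired analysis was possible because each stage has 1 library, and no library could be left out. The share of cycling cells stayed within its main interval, between 25.4% and 30.8%, under the 7 alternatives run. Crabp1 and Lef1 led in the cycling cells under every alternative run, with a log2 ratio of 0.57 in the main comparison, 0.45 without cells above 2 times the median UMIs, 0.37 after thinning, 0.30 with each cell weighted alike, 0.45 in the 50 pairs, 0.91 without the cell with most Cdkn1c UMIs and 1.77 with the 4-gene lists. In the non-cycling cells the log2 ratio was -0.92, and -1.12 with cycling from 5 UMIs, -1.14 with all non-cycling cells, -1.20 after thinning, -1.22 without cells with 3 or more of the cycle-gene UMIs, -1.04 with each cell weighted alike and -0.31 in the 50 pairs. With the 4-gene lists it turned to 0.45, since Vcan, a sub-epithelial gene abundant in both classes, enters the sum. So Crabp1 and Lef1 led less in non-cycling than in cycling cells in each case, while the order in non-cycling cells depended on the genes summed.

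The 814 higher and 442 lower genes became 204 and 146 of 2077 after thinning, 342 and 188 of 3926 in the 50 pairs, 347 and 101 at 2-fold, and 3644 and 4237 of 17514 with no UMI minimum. The first 2 settings also left fewer genes over the minimum, and the cause was not tested. Of 208 genes followed (list genes with at least 100 UMIs, 6 sparser ones named above and the 20 outside the lists), 151 were past 1.5-fold and 126 of them stayed past it under all of the 13 alternatives. Of these 151, direction turned in 3, each in the 50 pairs: log2 ratios of 0.34 for Dusp1, 0.00267 for Fos and 1.03 for Tctn1. Of the 57 inside 1.5-fold, 26 turned under some alternative, among them Egr1, Esr1, Vcan, Mcm2 and Ccne1. Leaving out the 1 cell of a class with most UMIs of the gene, also chosen after seeing the data, brought 5 of the 151 inside 1.5-fold (Dkc1, E2f1, Gins2, Ier2 and Fos) and moved the ratio by over 1.5 times in 14: Gm26870, Tctn1, Fst, Sema3c, Epcam, Anln, Bub1, Knl1, Hmmr, Nusap1, Pimreg, Cdkn2c, Foxm1 and Mybl2. It left Cdca2, Depdc1a, Esco2, Plk1 and Fgf10 with 0 UMIs in a class and so with no ratio. Among those that came inside 1.5-fold in the 50 pairs, a match chosen after seeing the data, were Cdkn1c, Dlk1, Meg3, H19, Igf2, Sparc, Col5a1, Lum, Mcm5, Mcm6, Pdgfc, Dkc1 and Ccnd1. One library per stage, pooled embryos, a partial depth match and the absence of a doublet call limit every value.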
